A study of Mus musculus with 4 samples.

Results

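Selenoproteins carry selenocysteine, an amino acid that is made on its own tRNA and inserted at a UGA codon. The 10 genes described here encode 4 factors of selenocysteine synthesis and insertion (Sephs2, Pstk, Sepsecs and Secisbp2), the glutathione peroxidases Gpx1 to Gpx4, and the thioredoxin reductases Txnrd1 and Txnrd2. They are 10 of the 18952 named genes on the array and were found through 12 of its 41174 probes, by matching each probe's accession to a mouse RefSeq gene. None of these 12 probes was dim on any of the 4 arrays, so all 10 genes passed the filter on signal over background. They were read beside the 2 probes of Trnau1ap, which encodes a protein that binds the selenocysteine tRNA. The members were chosen by function, but the set itself was selected on a measured value, the large positive KO against WT fold change of 1 Trnau1ap probe on these same arrays. The fold changes below are therefore descriptions and support nothing.

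The tissue was mammary gland of female mice aged 13 weeks, taken before tumours had formed. Every mouse had the transgene Δ16HER2, a HER2 receptor variant of human origin that drives mammary tumours. The series labels 2 arrays stathmin knockout (KO 1 and KO 2) and 2 arrays wild type (WT 1 and WT 2). A description shared by all 4 samples speaks of EOC cells, against the other labels, and was not used. The strain, the promoter of the transgene and whether each sample was 1 animal are not given in the sources used here. Total RNA was labelled with 1 dye and hybridised to Agilent arrays, and a level is the log2 signal of a probe minus the 75th percentile of its array. Fold changes are KO minus WT on the log2 scale. Their SE is limma's moderated one, which draws the spread of each probe toward that of all 24187 tested probes.

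Selenophosphate synthetase 2, the product of Sephs2, makes the selenium donor, PSTK phosphorylates the serine first loaded on the tRNA, and SEPSECS turns it into selenocysteine. SECISBP2 then binds the stem-loop in a selenoprotein mRNA that recodes UGA. Glutathione peroxidases reduce hydrogen peroxide and lipid peroxides with glutathione, and thioredoxin reductases keep thioredoxin reduced with electrons from NADPH. SEPHS2 is itself a selenoprotein, as are the 4 peroxidases and both reductases.

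The targeted gene, Stmn1, left the labels unchecked on its brighter probe. Its signals there were 6865 and 1621 on the arrays labelled KO, against 9222 and 1740 on the arrays labelled WT. After scaling, its levels were 4.56 and 3.34 on the KO arrays and 5.59 and 3.59 on the WT arrays. The groups overlapped, and the log2 fold change of -0.64 became 0.36 without WT 1. The other Stmn1 probe was well above background on 1 WT array and on neither KO array. Its signals were 5.575 and 4.839 on the KO arrays and 87.6 and 13.78 on the WT arrays, and both KO arrays lay below both WT arrays. All 6 luminal, all 6 myoepithelial and all 6 adipocyte markers were well above background on all 4 arrays, and so were all 6 skeletal muscle markers, although the labels give the histotype as epithelial. T and B cell markers were high on KO 2 alone. In such bulk tissue fewer cells of a type and less RNA per cell cannot be told apart. All 4 arrays lay on 1 slide and in 1 scan, and the share of spots well above background ran from 54.7% to 66.2%.

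Promoter windows show what the sequence around the start sites holds. RefSeq (GRCm38.p6) gave windows of 300 bases, 250 before and 50 after a transcription start, for 9 of the 10 genes (14 windows) and for Trnau1ap. Of these, 4 are printed. Trnau1ap had the largest fold change among these genes, on the probe for which the set was picked, and Gpx2 the largest among the members. The others are Txnrd2, whose 2 probes differed alike, and the Txnrd1 window with a match to the antioxidant response element. Capitals mark letters of 3 motifs searched on both strands, the core of the antioxidant response element (TGACNNNGC), which the stress factor NRF2 binds, the GC box (GGGCGG) and the CCAAT box (CCAAT). Trnau1ap lies at chr4:132329489-132329788, minus strand, Gpx2 at chr12:76795505-76795804, minus strand, Txnrd2 at chr16:18426167-18426466, plus strand, and the Txnrd1 window at chr10:82858956-82859255, plus strand.
Trnau1ap: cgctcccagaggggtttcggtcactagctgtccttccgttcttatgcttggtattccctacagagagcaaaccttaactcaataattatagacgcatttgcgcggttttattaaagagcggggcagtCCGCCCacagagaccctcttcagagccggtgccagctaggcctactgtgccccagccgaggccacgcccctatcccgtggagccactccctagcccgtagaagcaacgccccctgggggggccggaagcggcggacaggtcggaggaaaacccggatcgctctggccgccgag
Gpx2: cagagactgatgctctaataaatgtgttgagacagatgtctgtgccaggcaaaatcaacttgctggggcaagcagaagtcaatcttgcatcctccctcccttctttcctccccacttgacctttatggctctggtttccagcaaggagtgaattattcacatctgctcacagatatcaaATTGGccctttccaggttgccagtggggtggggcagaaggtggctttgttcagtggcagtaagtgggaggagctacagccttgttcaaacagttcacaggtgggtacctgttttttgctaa
Txnrd2: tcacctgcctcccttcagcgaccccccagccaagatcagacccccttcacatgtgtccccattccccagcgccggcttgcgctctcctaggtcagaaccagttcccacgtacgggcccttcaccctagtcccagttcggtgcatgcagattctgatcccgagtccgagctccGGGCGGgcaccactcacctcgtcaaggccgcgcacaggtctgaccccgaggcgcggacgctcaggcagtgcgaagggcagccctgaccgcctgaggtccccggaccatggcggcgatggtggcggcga
Txnrd1: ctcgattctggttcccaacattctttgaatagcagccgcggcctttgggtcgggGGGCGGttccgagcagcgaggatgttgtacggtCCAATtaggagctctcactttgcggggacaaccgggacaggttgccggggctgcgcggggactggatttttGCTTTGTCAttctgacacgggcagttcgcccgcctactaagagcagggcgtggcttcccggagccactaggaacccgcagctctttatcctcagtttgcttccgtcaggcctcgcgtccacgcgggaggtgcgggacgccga

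The antioxidant response element core was found in 1 of the 14 member windows, that of Txnrd1, where it reads GCTTTGTCA on the printed strand from base 159. Of all 32851 RefSeq windows, 12.4% held it. A GC box was found in 8 of the 14 member windows, of 6 genes (Gpx1, Gpx3, Gpx4, Secisbp2, Txnrd1 and Txnrd2) and in the Trnau1ap window, as in 35.7% of all windows. A CCAAT box was found in 7 of the 14, of 5 genes (Gpx2, Gpx3, Gpx4, Sephs2 and Txnrd1), as in 37.4% of all windows. The printed Trnau1ap and Txnrd2 windows thus share a GC box, and the Gpx2 window holds a CCAAT box alone of the 3 motifs. Overlapping Gpx4 windows hold the same GC and CCAAT boxes, so those matches enter the counts of member windows more than once. A match is a run of letters and not a site at which binding was measured.

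Trnau1ap, whose product is a cofactor of the selenocysteine tRNA, differed between the groups on only 1 of its 2 probes. The first probe (A_51_P475891) had signals of 2985 and 1873 on KO 1 and KO 2, against 430.4 and 373.2 on WT 1 and WT 2. Its levels were 3.36 and 3.55 on the KO arrays and 1.17 and 1.37 on the WT arrays. Within each group the 2 arrays lay within 0.20 of each other, and the groups were far apart, with KO minus WT at 2.18 ± 0.25 on the log2 scale (SE, 2 arrays a group), or 4.54-fold. The second probe (A_52_P193233) read 2.03 and 1.70 on the KO arrays and 1.64 and 2.05 on the WT arrays. Here the groups overlapped completely and the log2 fold change was 0.02 ± 0.29.

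The distance between the 2 probes follows from the fold change for which the set was picked, and its rank is given as a description. Among 4497 genes with at least 2 tested probes, the largest and the smallest fold change of a gene lay a median of 0.30 apart, and 0.96 apart at the 95th percentile. For Trnau1ap the distance was 2.16, which ranked 6 of 4497. The 2 probes of Secisbp2 lay 0.01 apart and those of Txnrd2 0.06. Both Trnau1ap probes carry the same accession (NM_027925), and the place of each probe in the transcript was not analysed here. Trnau1ap lies on chromosome 4, as does Stmn1, with 42 measured genes between them in RefSeq's order.

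**Figure D1:**
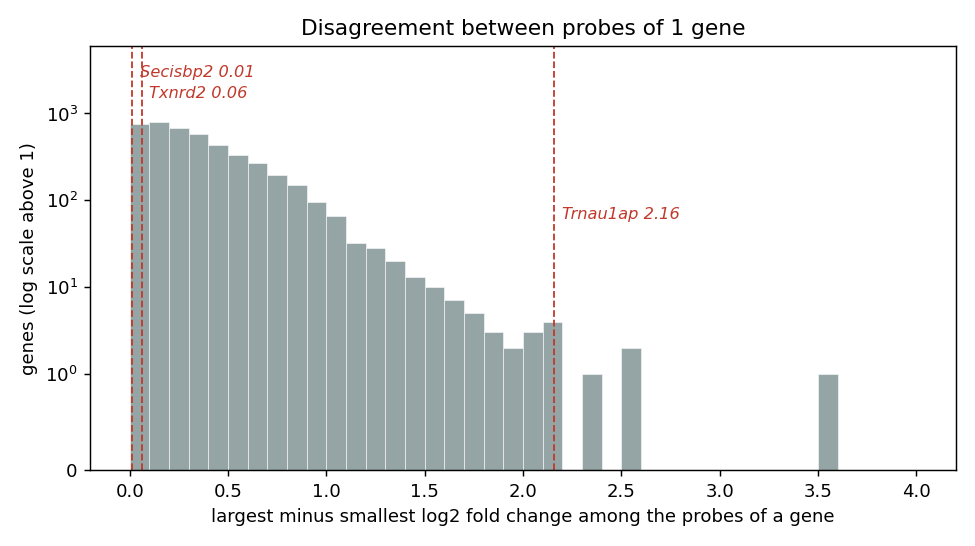
Number of genes (vertical axis, logarithmic above 1) by the distance between the largest and smallest log2 fold change of a gene's probes (horizontal axis), for 4497 genes with 2 or more tested probes. Dashed lines mark Secisbp2 at 0.01, Txnrd2 at 0.06 and Trnau1ap at 2.16, which stands in the sparse right tail.

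T cell markers were high on only 1 of the arrays on which the first Trnau1ap probe was high. That probe lay 1.0 above its mean over the 4 arrays on KO 1 and 1.19 above on KO 2. The mean of the 6 T cell markers was 1.11 below its own mean on KO 1 and 3.39 above it on KO 2. The part of T cells in the values of this Trnau1ap probe was not tested. By the distance between level profiles over the 4 arrays, the named genes most like this probe were Syce1 (0.82), Angptl8 (0.82) and Slc14a1 (0.83), among 13234 compared. Their fold changes were 1.54, 1.84 and 1.43, all smaller than that of the first Trnau1ap probe. Syce1 was faint, at -3.97 and -3.47 on the KO arrays and -5.67 and -4.84 on the WT arrays, so its fold change is uncertain.

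The 12 probes of the members had fold changes from -0.69 to 0.50, and limma called 0 of the 10 genes at an adjusted p under 0.05, as it called 0% of all 13235 named tested genes. At an unadjusted p under 0.05 there was 1 member, Gpx2, and 3.54% of all genes. Of the 10 genes 9 had a positive fold change, Txnrd1 barely at 0.00, with a median of 0.11. The count was 8 after quantile normalization, with normexp and in the authors' deposited table. Of all genes 49.3% were positive, with a median of -0.006. Both KO arrays lay above both WT arrays for 3 members (Pstk, Gpx4 and Txnrd2), against 17.8% of all genes, and below them for 1 (Gpx2), against 17.7%. Since the set was chosen with this contrast known, nothing is read from these counts.

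**Figure D2:**
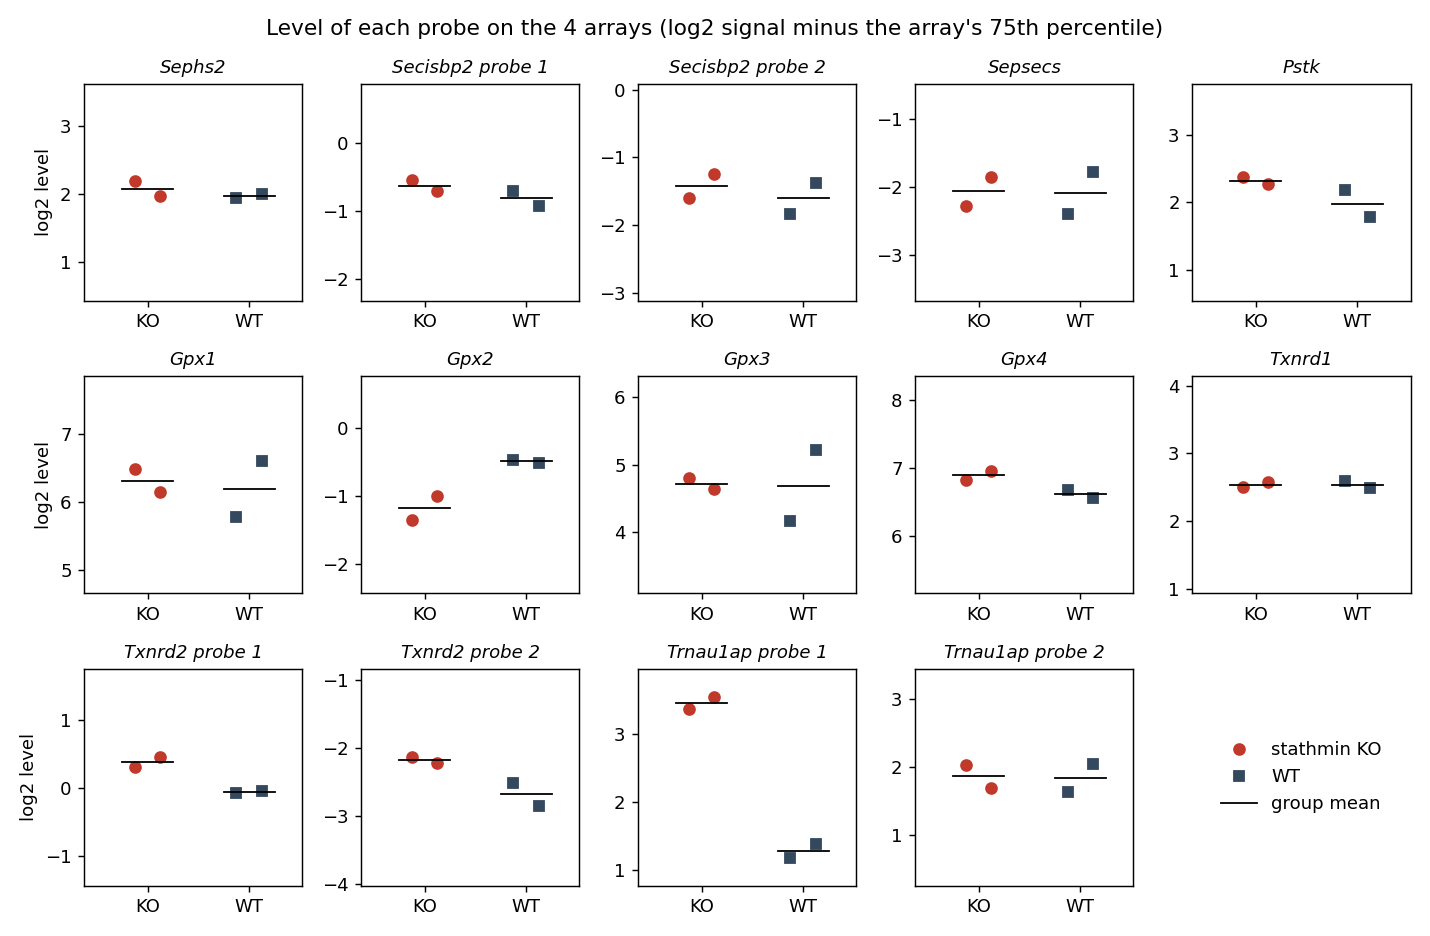
Level of each probe (log2 signal minus the 75th percentile of its array, vertical axis, each panel spanning the same range) on the KO arrays (red circles, array 1 left of array 2) and the WT arrays (blue squares), with bars at the group means. The groups are apart for the first Trnau1ap probe and for Gpx2, by less for Gpx4, Pstk and both Txnrd2 probes, and overlap elsewhere.

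The factors of selenocysteine synthesis and insertion showed small differences. Sephs2, the selenophosphate synthetase gene, read 2.19 and 1.97 on the KO arrays and 1.95 and 2.01 on the WT arrays. KO 1 was the highest array and KO 2 lay between the WT arrays, so the groups overlapped, with a log2 fold change of 0.10 ± 0.25 (SE). Pstk, the kinase that acts on the serine-loaded tRNA, read 2.37 and 2.27 on the KO arrays and 2.19 and 1.78 on the WT arrays. Its groups did not overlap, but WT 2 alone was clearly low, and the fold change of 0.34 ± 0.27 became 0.14 without WT 2. Sepsecs, the selenocysteine synthase gene, read -2.28 and -1.85 on the KO arrays and -2.40 and -1.79 on the WT arrays. The arrays numbered 2 were higher in both groups, and the fold change was 0.03 ± 0.33.

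Secisbp2, whose product brings the insertion machinery to the mRNA, was read by 2 probes. The brighter probe (A_51_P409724) gave -0.55 and -0.71 on the KO arrays and -0.70 and -0.93 on the WT arrays. The other (A_52_P558163) gave -1.60 and -1.24 on the KO arrays and -1.83 and -1.38 on the WT arrays. The groups overlapped on both probes. The fold changes were 0.18 ± 0.25 and 0.19 ± 0.29, yet the order of the arrays within each group was opposite on the 2 probes. The brighter probe was higher on KO 1 and WT 1, and the other on KO 2 and WT 2.

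Among the peroxidases Gpx2 stood alone on the lower side. Gpx2, best known as the glutathione peroxidase of the gut epithelium, had signals of 114.7 and 80.19 on the KO arrays, against 138.9 and 101.6 on the WT arrays. Its levels were -1.35 and -1.0 on the KO arrays and -0.46 and -0.51 on the WT arrays. Both KO arrays lay below both WT arrays, which lay 0.04 apart, and the log2 fold change was -0.69 ± 0.26 (SE), a KO level of 0.621 times that in WT. With 1 array left out it ran from -0.86 to -0.51, and over the alternatives that kept all arrays from -0.69 to -0.47. Of the 6 luminal epithelium markers 5 had a negative fold change (median -0.38), as had 5 of the 6 myoepithelium markers (median -0.30). By array, Gpx2 was lowest on KO 1, and on average the luminal markers were lowest on KO 2. Their mean was 0.24 above its own mean over the arrays on KO 1, where Gpx2 was 0.52 below, and 0.65 below on KO 2, where Gpx2 was 0.17 below. Their summed level was 6.98 and 6.35 on the KO arrays and 6.87 and 7.16 on the WT arrays, with 6 of 6 markers measured. Markers of 4 other cell types had no positive fold change. All 6 fibroblast markers were lower on both KO arrays than on both WT arrays, with a summed level of 7.94 and 7.99 on the KO arrays and 8.58 and 8.56 on the WT arrays. Both KO arrays were also lower for 3 of 6 endothelium markers, 3 of 6 skeletal muscle markers and 3 of 5 macrophage markers. The same held for 1 of 6 luminal and 2 of 6 myoepithelium markers, and for 17.7% of all named tested genes. Relative to its mean over the arrays, the endothelium mean was -0.10 and -0.26 on the KO arrays and 0.18 and 0.18 on the WT arrays. The skeletal muscle mean was -0.39 and 0.02 on the KO arrays and 0.26 and 0.10 on the WT arrays, and the macrophage mean was -0.28 and -0.24 on the KO arrays and -0.02 and 0.55 on the WT arrays. The part of these cell types in the fold changes of Gpx2, and of Selenop, Txnip and Acsl4 described further on, was not tested.

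Gpx4 reduces lipid peroxides inside membranes and guards cells against ferroptosis, a form of death by lipid oxidation. It read 6.82 and 6.96 on the KO arrays and 6.68 and 6.55 on the WT arrays. Both KO arrays were higher, by a log2 fold change of 0.28 ± 0.24 (SE), which is a factor of 1.21. With 1 array left out it ran from 0.20 to 0.35, and over the alternatives that kept all arrays from 0.28 to 0.48. The upper values were 0.47 after quantile normalization and after median scaling and 0.48 in the authors' deposited table. Raw signals of 32824 and 19952 on the KO arrays and 19639 and 13495 on the WT arrays were far from dim, and no spot on the arrays was saturated.

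Gpx1 and Gpx3 differed most between the 2 WT arrays. Gpx1, the main peroxidase of the cytosol, read 6.49 and 6.14 on the KO arrays and 5.78 and 6.61 on the WT arrays. Gpx3, the secreted peroxidase of plasma, read 4.80 and 4.64 on the KO arrays and 4.17 and 5.21 on the WT arrays. For both genes WT 1 was the lowest array and WT 2 the highest, with the KO arrays between them. The fold changes of 0.12 ± 0.36 and 0.03 ± 0.40 (SE) changed sign with the array left out, to -0.30 and -0.49 without WT 1 and to 0.54 and 0.55 without WT 2. The difference of WT 1 minus WT 2 was -0.83 for Gpx1 and -1.04 for Gpx3. The median size of that difference was 0.19 over the 10 members and 0.26 over all named tested genes.

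Each of the 6 adipocyte markers was lower on WT 1 than on WT 2, as Gpx1 and Gpx3 were. The place of the KO arrays differed among the markers. The mean of the 6 adipocyte markers, relative to its own mean over the arrays, was 0.02 and 0.02 on the KO arrays, -0.32 on WT 1 and 0.28 on WT 2. Gpx3 was 0.10 and -0.07 on the KO arrays and -0.54 and 0.51 on the WT arrays on the same scale. All 6 markers were measured, and their summed level was 9.05 and 9.35 on the KO arrays and 9.20 and 9.65 on the WT arrays, lowest on KO 1. No single marker was both lowest on WT 1 and highest on WT 2. Adipoq, Cidec and Fabp4 were lowest on KO 1, and Plin1, Lep and Retn were highest on a KO array. Macrophage markers were also highest on WT 2, at 0.55 over 5 measured genes. The part of either in the Gpx1 and Gpx3 values was not tested.

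**Figure D3:**
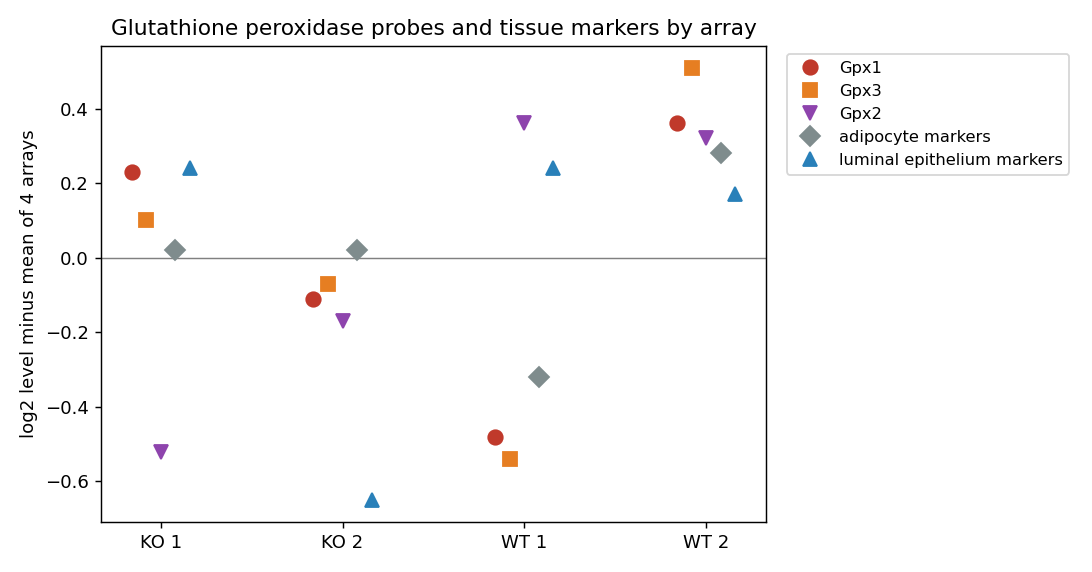
Level of the Gpx1, Gpx2 and Gpx3 probes and mean level of 6 adipocyte and 6 luminal epithelium markers on each array, each minus its own mean over the 4 arrays (vertical axis, log2), by array (horizontal axis). Gpx1, Gpx3 and the mean of the adipocyte markers are lowest on WT 1 and highest on WT 2. No single adipocyte marker has both extremes, though each is lower on WT 1 than on WT 2. Gpx2 is lowest on KO 1 and the luminal mean on KO 2.

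Of the thioredoxin reductases, Txnrd1 was the steadiest member and Txnrd2 was higher on the KO arrays. Txnrd1, the cytosolic enzyme and a known NRF2 target, read 2.50 and 2.58 on the KO arrays and 2.59 and 2.49 on the WT arrays. All 4 arrays lay within about 0.10 of each other, and the fold change was 0.00 ± 0.24 (SE). Its window printed above is the one with the antioxidant response element core. Txnrd2, the mitochondrial enzyme, read 0.30 and 0.45 on the KO arrays and -0.07 and -0.05 on the WT arrays on its brighter probe (A_51_P460181). Its dimmer probe (A_52_P193060) read -2.13 and -2.22 on the KO arrays and -2.52 and -2.85 on the WT arrays. On both probes the KO arrays lay above the WT arrays, with fold changes of 0.44 ± 0.24 and 0.50 ± 0.26. With 1 array left out they ran from 0.37 to 0.51 and from 0.34 to 0.67. The dimmer probe had signals of 66.36 and 34.26 on the KO arrays and 33.45 and 20.03 on the WT arrays, and with normexp background correction its fold change was 0.10.

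**Figure D4:**
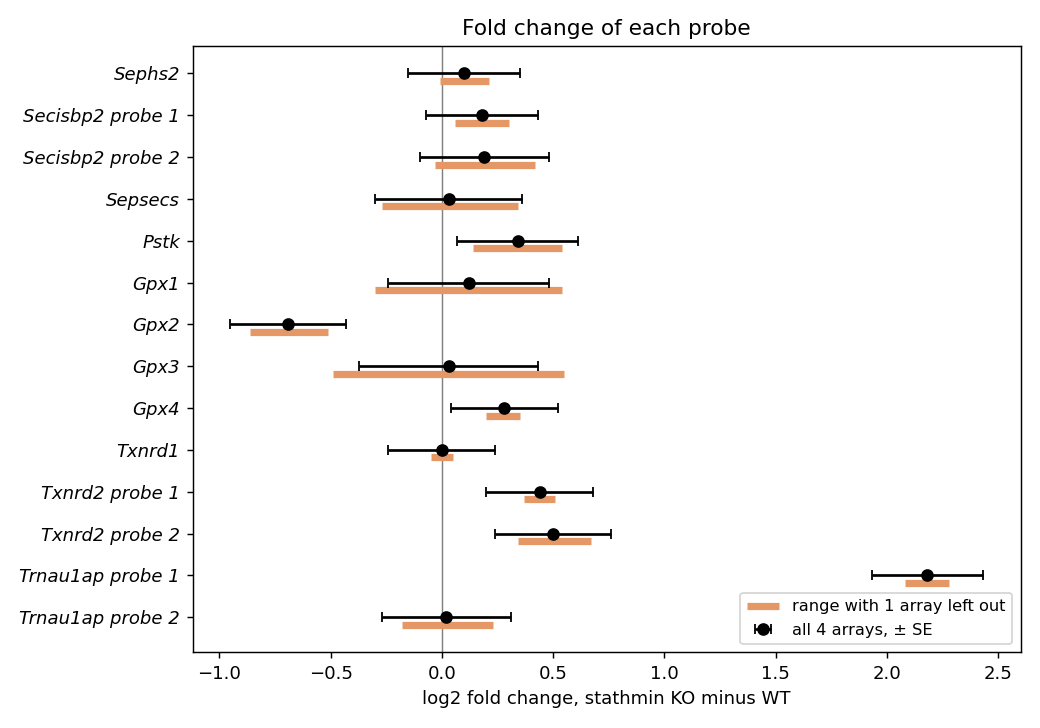
Log2 fold change of each probe, KO minus WT (horizontal axis), with all 4 arrays (black points, bars ± SE) and its range with 1 array left out (orange bars). The first Trnau1ap probe stands at 2.18 and Gpx2 at -0.69. The orange bars of Gpx1, Gpx3 and Sepsecs reach to both sides of 0. So do those of Sephs2, the dimmer Secisbp2 probe, Txnrd1 and the second Trnau1ap probe.

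Other genes of the selenium and antioxidant pathways showed no common direction, and limma called 0 of them at an adjusted p under 0.05. Of 17 other selenoprotein genes 14 were tested, 4 with a positive and 10 with a negative fold change, at a median of -0.04. Txnrd3, a reductase best known from testis, read 2.26 and 1.99 on the KO arrays and 1.55 and 1.81 on the WT arrays, a fold change of 0.44 ± 0.26 (SE). It was the only one of the 14 with both KO arrays above both WT arrays, beside 17.8% of all genes. Selenop, the plasma protein that carries selenium between organs, read 3.59 and 3.88 on the KO arrays and 4.07 and 4.23 on the WT arrays, a fold change of -0.42 ± 0.26. Selenof, a protein of the endoplasmic reticulum, had -0.09 ± 0.24. Selenop and Selenof were the 2 genes of the 14 with both KO arrays lower, beside 17.7% of all genes. Dio1, Dio3 and Selenov failed the filter on dim probes.

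Of 14 further genes linked to selenocysteine use, 12 were tested, at a median of -0.02. Both KO arrays lay above both WT arrays for 4 of the 12, beside 17.8% of all genes. These were Eif4a3, whose product can block insertion at some stem-loops (0.37 ± 0.25, SE), Trit1, which modifies the tRNA (0.19 ± 0.24), Eefsec, the elongation factor for selenocysteine (0.16 ± 0.24), and Scly, which recycles selenium (0.15 ± 0.24). The RNA-binding protein gene Elavl1 was the 1 with both KO arrays lower, beside 17.7% of all genes, at -0.14 ± 0.24, and is named here after its value was seen. All 5 differences lay well inside the range between the 5th and 95th percentiles of all genes, -0.70 to 0.57. The cysteine-containing relatives Gpx7 and Gpx8, of the endoplasmic reticulum, had 0.22 ± 0.42 and 0.03 ± 0.27.

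Partners that use or feed the same enzymes were mixed as well. In the thioredoxin and peroxiredoxin list, 6 of 11 genes were positive (median 0.07). Txnip, the inhibitor of thioredoxin, read 4.67 and 4.67 on the KO arrays and 5.40 and 5.32 on the WT arrays, a fold change of -0.69 ± 0.24 (SE), or -1.04 on its second probe. The KO arrays were lower on both probes. Txn2, the mitochondrial thioredoxin that Txnrd2 reduces, read 0.24 and 0.07 on the KO arrays and -0.01 and -0.51 on the WT arrays, a fold change of 0.41 ± 0.29. Srxn1, which repairs peroxiredoxins, had 0.45 ± 0.29 on its brightest probe and 0.24 and -0.30 on the others. Prdx5 had 0.27 ± 0.25.

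Glutathione genes had a median of 0.01 over 8 tested genes. The glutaredoxin gene Glrx5, which serves iron-sulfur cluster assembly, had a fold change of -0.53 ± 0.31 (SE), and its relative Glrx2 had 0.25 ± 0.24. Superoxide dismutases and catalase had a median of 0.17 over 5 genes. Catalase, encoded by Cat, had 0.31 ± 0.27, and the extracellular dismutase Sod3, whose groups overlapped, had 0.25 ± 0.28.

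The NRF2 list had a median of 0.01 over 15 tested genes, 9 of them positive. The NADPH-making genes in it went both ways. Me1, the malic enzyme gene, had 0.69 ± 0.42 (SE) and G6pdx, of the pentose phosphate pathway, had 0.47 ± 0.33. Pgd, the next dehydrogenase of that pathway, had -0.94 ± 0.31 on its brightest probe and 0.63 on its second, so its probes disagreed in sign.

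Genes tied to ferroptosis beside Gpx4 had a median of -0.01 over 8 tested genes. Acsl4, which loads membranes with oxidisable fatty acids, read 2.20 and 2.37 on the KO arrays and 3.12 and 4.01 on the WT arrays. Both KO arrays lay below both WT arrays, and WT 2 was the highest, at a fold change of -1.28 ± 0.37 (SE), or -1.0 on its second probe. Macrophage markers were also highest on WT 2, at 0.55 against -0.28 and -0.24 on the KO arrays and -0.02 on WT 1, and their part in the Acsl4 value was not tested. Dhodh, a mitochondrial enzyme that also limits lipid peroxidation, had 0.32 ± 0.26. List medians this close to 0 took the other sign under another scaling. Under median scaling, where the median of all genes was 0.19, they were 0.16 for the other selenoprotein genes, 0.18 for the further selenocysteine genes and 0.19 for the ferroptosis genes.

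**Figure D5:**
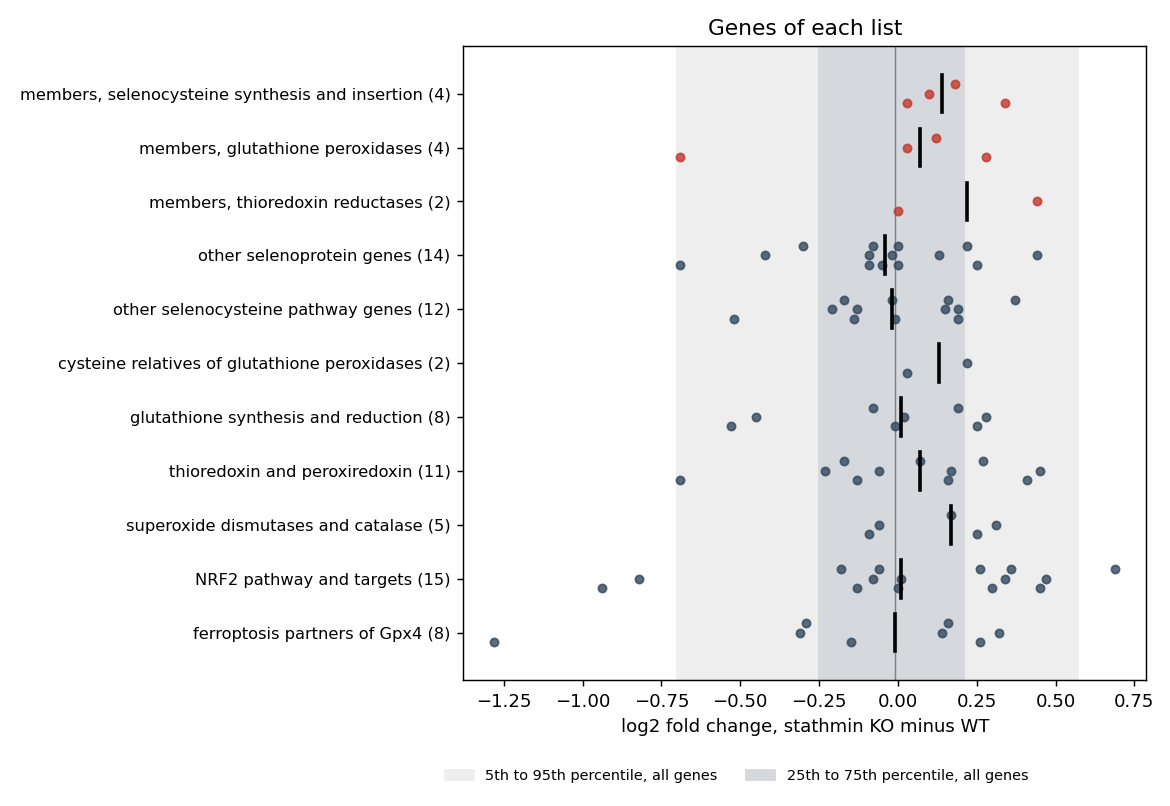
Log2 fold change, KO minus WT (horizontal axis), of each tested gene in each list (points, number tested in brackets; red for the 10 member genes), with black bars at the list medians and grey bands for the spread of all named tested genes. The medians lie between -0.04 and 0.22, and Acsl4 at -1.28 is the lowest point.

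Differences within a group do not enter the contrast that chose the set. The median size of the difference between KO 1 and KO 2 was 0.16 over the 10 members and 0.32 over all named tested genes, and between WT 1 and WT 2 it was 0.19 over the members and 0.26 over all genes. All members were well above background on all 4 arrays, whereas a tested gene needed this only on both arrays of a group. The part of brightness in these sizes was not tested. Among the members the largest difference was the -1.04 of Gpx3 between the WT arrays. The level profile of Gpx2 had close neighbours among 13234 genes, with Jmjd4, Enpp1 and 9530080O11Rik at distances of 0.03, 0.05 and 0.06, and fold changes of -0.67, -0.70 and -0.73. With 4 arrays such likeness is common and is given as a description.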

How the data were processed

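Processed signal intensity per spot was deposited in the authors' scanner files, written by Feature Extraction software (11.5.1.1 per the file headers, but 10.7.3.1 in the submitters' processing notes), with background subtracted and nothing done between arrays. The authors also deposited a log2 table. It matched quantile-normalized log2 signals centred on each probe's median (r from 0.99999), with column medians of 0.00626, -0.0096, -0.018 and 0.0183 on KO 1, KO 2, WT 1 and WT 2, and was used as an alternative.

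Control spots and 35 to 73 outlier spots per array were left out. Log2 signals were scaled to each array's 75th percentile (291, 160, 191 and 144 on KO 1, KO 2, WT 1 and WT 2). A probe was tested when well above background on both arrays of a group, and a gene's brightest probe stood for it. Accessions were matched to RefSeq (GRCm38.p6), naming 27816 probes. Limma 3.58.1 in R 4.3.3, tested on simulated data, compared the groups with p-values adjusted (Benjamini-Hochberg) across the tested probes. The labels do not say that samples were separate animals, so the SE need not hold the spread between animals. Being moderated, it can also exceed a steady probe's own spread. Txnrd1 had an SE of 0.24, with SDs of 0.06 in KO and 0.07 in WT. The 2 arrays per group limit the precision.

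The members, lists and alternatives were chosen with earlier results of these data known. Every probe of a member is named. Of each other list up to 4 genes are named, those with the largest fold changes without overlap, filled to 2, and for 2 probes the 3 genes with the nearest level profiles. Normexp used median spot signals.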

Additional observations from a re-analysis of the deposited data

How the results depend on the processing

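With 2 arrays per group, the members' differences are of the size that single arrays can move. No member passed an adjusted p of 0.05 in limma under any alternative run, and over all features the count stayed at 0 except under median scaling, which gave 4 probes and 3 named genes. That scaling moved the median of all genes to 0.19 and that of the 10 members to 0.30, against 0.11 in the values above. The members' median was 0.18 after quantile normalization, 0.18 in the authors' deposited values and 0.19 with normexp, and it ran from 0.06 to 0.21 with 1 array left out. The cause of these shifts was not tested, beyond the scaling itself. With 1 array left out 6 to 8 members were positive. For the probes of the members, Trnau1ap and Stmn1, another scaling, normexp and the authors' deposited values gave 60 fold changes, of which 5 had another sign, all within 0.07 of 0. The other filters on dim probes, the outlier spots kept and the block left all 60 of theirs as they were, so they say nothing of stability. With normexp Sephs2 had 0.27, the dimmer Secisbp2 probe 0.03 and Txnrd1 0.19. Of 60 fold changes with an array left out 13 had another sign. The median of the 4 peroxidases was -0.40 without WT 1. Among all these probes Gpx2, Gpx4, Pstk, both Txnrd2 probes, the brighter Secisbp2 probe and the first Trnau1ap probe kept their sign in all of these. Apart from the Secisbp2 probe, their groups did not overlap, so leaving out 1 array could not have changed the sign. For those probes the kept sign with 1 array left out says nothing of stability. With the replicate number as a block 0 probes and 0 genes passed. The labels do not say that the numbers pair the samples, and the deviations of same-numbered arrays correlated at 0.0648 over 24187 probes. The filter on dim probes removed no member, since all were well above background on all 4 arrays. Passing it does not mean that background was without effect. With normexp the dimmer Txnrd2 probe had 0.10 against 0.50, Gpx2 -0.47 against -0.69 and Sepsecs -0.07 against 0.03. The brighter Secisbp2 probe stayed at 0.17 against 0.18.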

Other observations

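The 6 genes with the largest distance between the fold changes of their own probes were looked at after that distance was seen for Trnau1ap. They were Rbbp4 (3.51), Nfib (2.59), Ube2o (2.52), Ptpn7 (2.33), Fgfr1 (2.18) and Trnau1ap (2.16). Of these, 3 lie on chromosome 4, the chromosome of Stmn1 (Rbbp4, Nfib and Trnau1ap), where 6.0% of the 4497 genes compared lie. The list was cut at Trnau1ap, for which the set was picked, so Trnau1ap was in this count from the start. Nothing is read from the count. Rbbp4, which encodes a histone-binding protein of several chromatin complexes, had fold changes from -0.30 to 3.21 over 3 probes. It has 78 measured genes between it and Stmn1, Trnau1ap has 42 and Nfib 333. These are values of genes chosen for their size, and no test was made.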
